A study of Mus musculus with 8 samples.

Results

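A set of transcription factors known for setting the fate of fibroblasts and other connective tissue cells were examined in left ventricles of mice infused with angiotensin II (ANG II). They were chosen by name: Runx1, Runx2, Sox9, Sox4, Tcf21, Twist1, Scx, Prrx1, Snai1 and Snai2, 10 of the 55679 genes in the deposited table, and all 10 were among the 19364 genes tested. The mice were male, wild-type (WT) C57BL/6J. In the ANG II group (n = 4), a pump under the skin delivered ANG II at 1500 ng/kg/min for 7 days, and in the control group (n = 4) saline was given for the same 7 days. Age was not given in the sources used here. Whole left ventricle was sequenced, 1 library per sample, so that a change of cell number and a change of RNA per cell cannot be told apart. The labels number the samples within each group but do not say that each came from a separate animal. The paper calls its samples biological replicates and describes more of them per group than were analysed here. If the samples are not from separate animals, p-values measure the spread between these samples only.

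Fibroblasts hold the matrix of the heart together, and under pressure overload they divide, secrete collagen and take on features of myofibroblasts. Transcription factors of the RUNX, SOX, bHLH, paired homeobox and Snail families direct this kind of cell in the embryo, where they also start cartilage, bone and tendon. RUNX proteins bind DNA with the partner Cbfb, bHLH factors pair with the E proteins Tcf3, Tcf4 and Tcf12, and Snail proteins act mainly as repressors.

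After 7 days of ANG II, 9 of the 10 factors rose and the remaining factor, Prrx1, did not pass the test. The rise was 4.40-fold for Runx1, 5.46-fold for Runx2, 3.93-fold for Sox9 and 3.21-fold for Snai1 (ratios of mean FPKM, fragments scaled by transcript length and by the fragments of the library), and between 1.58-fold and 2.56-fold for Sox4, Snai2, Tcf21, Scx and Twist1. A factor was called when limma gave it an adjusted p under 0.05 together with a log2 fold change beyond 0.5 in either direction, on log2(FPKM + 1). By this rule 14% of all tested genes were higher in ANG II and 1.41% lower. In 8 of the 10 factors all ANG II libraries lay above all controls, as did 28.7% of all tested genes, while 5.06% of them lay wholly below. The median log2 fold change was 0.96 over the 10 factors and 0.15 over all tested genes.

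The start regions of the factors with the clearest changes are shown because Runx1 has 2 separate starts and because they differ in base composition. They were taken from RefSeq (GRCm38.p6), in which 7 of the 10 factors were matched; Sox9, Scx and Snai2 were not. Except for the Runx2 stretch of 30 bases, which lies in an annotated exon of Runx2, only bases outside the annotated exons of the gene are printed, 5′ to 3′ on the strand of the gene, and capitals mark the letters of a motif searched.
Runx1 proximal start, chr16:92697330-92697579, minus strand, TEAD motif in capitals: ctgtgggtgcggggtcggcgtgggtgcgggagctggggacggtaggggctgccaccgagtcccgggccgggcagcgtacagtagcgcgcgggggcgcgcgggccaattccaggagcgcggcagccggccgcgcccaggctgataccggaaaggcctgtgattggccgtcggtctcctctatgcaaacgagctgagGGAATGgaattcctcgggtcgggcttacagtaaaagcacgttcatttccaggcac
Runx1 distal start, chr16:92826150-92826324, minus strand, E-boxes in capitals: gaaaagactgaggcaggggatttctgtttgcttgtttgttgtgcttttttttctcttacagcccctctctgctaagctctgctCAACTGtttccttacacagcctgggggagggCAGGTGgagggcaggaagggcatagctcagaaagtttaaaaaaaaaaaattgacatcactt
Twist1, chr12:33957421-33957670, plus strand, TATA box and SMAD motif in capitals: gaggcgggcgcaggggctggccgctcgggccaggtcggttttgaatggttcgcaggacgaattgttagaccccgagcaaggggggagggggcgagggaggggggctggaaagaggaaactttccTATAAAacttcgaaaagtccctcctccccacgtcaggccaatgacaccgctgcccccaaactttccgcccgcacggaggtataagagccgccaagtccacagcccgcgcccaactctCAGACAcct
Snai1, chr2:167537945-167538194, plus strand, Snail-type E-box in capitals: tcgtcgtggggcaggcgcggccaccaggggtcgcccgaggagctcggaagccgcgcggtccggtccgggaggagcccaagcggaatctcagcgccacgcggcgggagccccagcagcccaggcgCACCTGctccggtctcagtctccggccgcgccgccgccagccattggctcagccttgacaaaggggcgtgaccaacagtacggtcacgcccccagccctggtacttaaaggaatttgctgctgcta
Runx2, 30 exonic bases around its RUNX match, chr17:44814689-44814718, minus strand: tgaggtcacaaACCACATGattctgtctct

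The 250 bases before each start were searched on both strands for fixed letters. Part of some windows lies in annotated exons of the same gene. This part was 170 bases for Runx2, 75 for the Runx1 distal start, 60 for Prrx1, 31 for Tcf21 and 14 for Sox4. The RUNX motif (TGTGGT) was in 14% of the 32851 promoters of the table, and among the 8 windows of the factors only that of Runx2 held it, 80 bases before the start, where it overlaps an E-box (CANNTG). The Snail-type E-box (CAGGTG, a subset of the E-box) was in 17.2% of all promoters and in the windows of Snai1, at 126 bases, and of the Runx1 distal start, at 136 bases. The E-box in general was in 66.2% of all promoters. The windows of the Runx1 distal start (3 matches), Runx2, Sox4 and Snai1 held it. The TEAD motif (GGAATG) was in 12.6% of all promoters, the SMAD motif (CAGACA) in 17.1% and the TATA box (TATAAA) in 12.4%. The Runx1 proximal, Sox4 and Prrx1 windows held the TEAD motif, those of Sox4 and Twist1 the SMAD motif, and that of Twist1 the TATA box. None of the 8 windows held the AP-1 letters (TGANTCA, 6.75% of all promoters), the SOX letters (ACAATG, 10.7%) or a CArG box (1.47%), and the Tcf21 window held none of the motifs searched. The share of G and C was 70% for Snai1 and 67.6% for the Runx1 proximal start but 45.6% for the Runx1 distal start and 44.8% for Runx2, against a median of 52.4% over all promoters. These matches are descriptions of letters and not sites of binding, and the table gives 1 value per gene, so the 2 Runx1 starts were not separated.

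**Figure D1:**
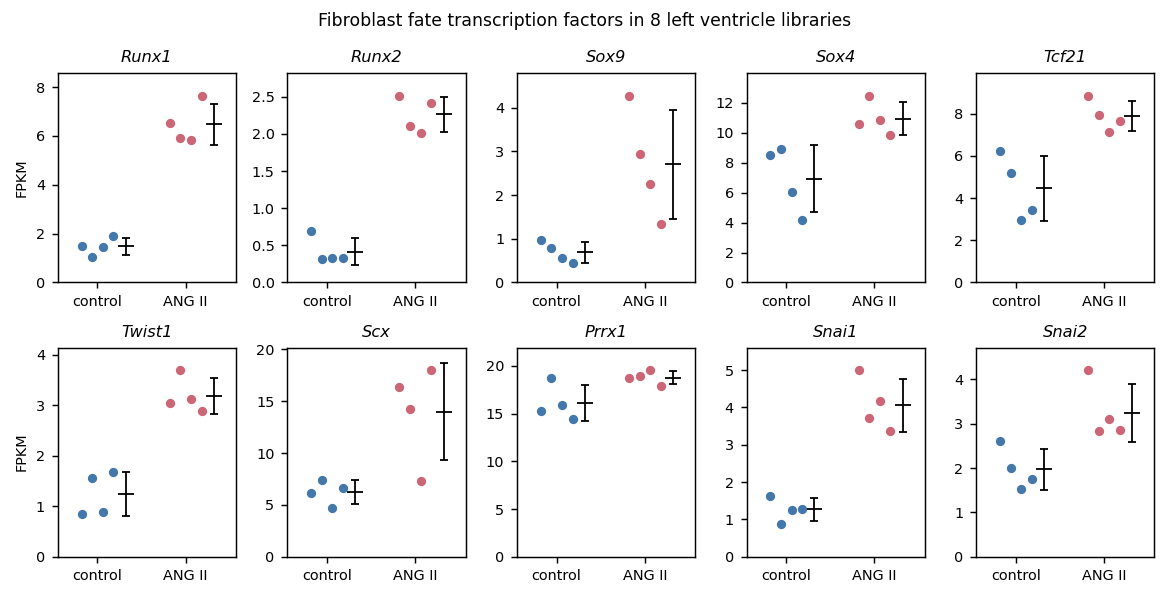
FPKM of each of the 10 factors (vertical axis, starting at 0, scale differs by panel) in the 4 control and 4 ANG II libraries; points are libraries in the order of their replicate number, and the bar is the mean with its SD. In 8 panels the groups are apart, while Scx overlaps through ANG II 3 (7.35 FPKM) and Prrx1 through control 2 (18.8 FPKM).

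Runx1 (chr16:92601466-92826149, minus strand, GRCm38), the factor that blood stem cells need to form and that is also made in injured connective tissue, had 1.502, 1.06, 1.44 and 1.90 FPKM in the 4 controls and 6.54, 5.93, 5.81 and 7.65 FPKM in the 4 ANG II libraries. Every ANG II library was far above every control, and the spread within each group was small beside the gap. Its log2 fold change of 1.60 (SE 0.129, adjusted p = 2.73e-05, limma) placed it 203rd among all tested genes. It was the largest of the 10 with a pseudocount of 1, but below that of Runx2 with a pseudocount of 0.1 (2.08 against 2.25) and in limma-voom on recovered fragments (1.94 against 2.29).

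Runx2 (chr17:44495987-44814797, minus strand), which directs the formation of bone cells, had 0.691, 0.311, 0.329 and 0.327 FPKM in control and 2.52, 2.11, 2.01 and 2.42 FPKM in ANG II. It was the least abundant of the factors in both groups, with 10 to 22 fragments per control library and 68 to 86 per ANG II library. Control 1 held about as much again as the other controls but remained well under all ANG II libraries. The log2 fold change was 1.21 (SE 0.119, adjusted p = 7.91e-05, limma), and 2.29 (SE 0.269, adjusted p = 3.77e-05) in limma-voom on the recovered fragments, a scale that does not compress low values.

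Sox9 (chr11:112782224-112787760, plus strand), which starts cartilage, had 0.970, 0.778, 0.555 and 0.443 FPKM in control and 4.28, 2.94, 2.26 and 1.33 FPKM in ANG II. The groups were apart, but the ANG II libraries differed among themselves more than for any other factor, with a coefficient of variation of 45.9%. Sox9 rose by a log2 fold change of 1.08 (SE 0.227, adjusted p = 0.00502, limma).

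Sox4 (chr13:28948919-28953713, minus strand), a factor of embryonic progenitors, had 8.54, 8.94, 6.07 and 4.17 FPKM in control and 10.6, 12.5, 10.9 and 9.87 FPKM in ANG II. All ANG II libraries were above all controls, with the nearest values 8.94 and 9.87 FPKM. The log2 fold change was 0.63 (SE 0.190, adjusted p = 0.0276, limma), and the call was lost with any 1 ANG II library, control 3 or control 4 left out (adjusted p 0.0151 to 0.178 over all alternatives). Under median-of-ratios scaling it was 0.44 (adjusted p = 0.111). The gene Gm26735 covers 54.6% of the Sox4 exon from the opposite strand, and whether strand was used in counting is not given in the sources used here, so that its reads and those of Sox4 cannot be told apart.

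Tcf21 (chr10:22817281-22820174, minus strand), a bHLH factor of the epicardium and of resident cardiac fibroblasts, had 6.25, 5.20, 2.96 and 3.42 FPKM in control and 8.85, 7.92, 7.14 and 7.66 FPKM in ANG II. The controls were the more scattered group, and the highest of them stayed below the lowest ANG II library. For Tcf21 this gave a log2 fold change of 0.74 (SE 0.180, adjusted p = 0.0104, limma).

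Twist1 (chr12:33957671-33959829, plus strand), a bHLH factor of embryonic mesenchyme, had 0.850, 1.56, 0.890 and 1.69 FPKM in control and 3.04, 3.70, 3.13 and 2.88 FPKM in ANG II. The controls lay in a low and a high pair, both under the ANG II group. Twist1 rose by 0.92 on the log2 scale (SE 0.148, adjusted p = 0.00122, limma).

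Scx (chr15:76457452-76459458, plus strand), a bHLH factor of tendon progenitors, had 6.14, 7.38, 4.68 and 6.66 FPKM in control and 16.3, 14.3, 7.35 and 18.025 FPKM in ANG II. ANG II 3 was just below control 2 and the other ANG II libraries were above all controls, so the groups overlapped in 1 library each. Scx rose by 1.00 on the log2 scale (SE 0.238, adjusted p = 0.00934, limma). Scx lies inside the span of Bop1 on the opposite strand without sharing exon bases with it.

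Prrx1 (chr1:163245119-163313710, minus strand), a homeobox factor that marks the mesenchyme of limb and head and many fibroblasts, was the most abundant of the factors. It had 15.2, 18.8, 15.9 and 14.5 FPKM in control and 18.7, 18.9, 19.6 and 17.9 FPKM in ANG II, and control 2 was within the ANG II range. Its log2 fold change was 0.22 (95% interval 0.04 to 0.39, adjusted p = 0.0635, limma), and 0.01 under median-of-ratios scaling (adjusted p = 0.956).

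Snai1 (chr2:167538195-167542814, plus strand), a zinc finger repressor of E-cadherin, had 1.62, 0.887, 1.27 and 1.29 FPKM in control and 5.01, 3.71, 4.16 and 3.36 FPKM in ANG II. Snai2 (chr16:14705852-14709385, plus strand), its close relative, had 2.60, 2.00, 1.52 and 1.75 FPKM in control and 4.21, 2.82, 3.11 and 2.85 FPKM in ANG II. Both were higher in every ANG II library than in every control, by a wide gap for Snai1 and a narrow one for Snai2. The log2 fold change was 1.16 (SE 0.139, adjusted p = 2.27e-04, limma) for Snai1 and 0.52 (SE 0.146, adjusted p = 0.0213, limma) for Snai2. The Snai2 call was lost under median-of-ratios scaling (0.36, adjusted p = 0.0834) and in limma-voom (0.52, adjusted p = 0.0581), and also without ANG II 1, control 3 or control 4 (adjusted p 0.0123 to 0.277 over all alternatives).

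In control the order of the levels (FPKM, which is per length) was Prrx1, Sox4, Scx, Tcf21, Snai2, Runx1, Snai1, Twist1, Sox9 and Runx2. Prrx1 was above all others in each control library, whereas the ranges of Sox4, Scx and Tcf21 overlapped, as did those of Snai2, Runx1, Snai1 and Twist1, and of Sox9 with Twist1 and with Runx2. In ANG II the order was Prrx1, Scx, Sox4, Tcf21, Runx1, Snai1, Snai2, Twist1, Sox9 and Runx2. There the range of Prrx1 met that of Scx, and among the other neighbours only Sox4 with Tcf21 and Runx1 with Snai1 did not overlap.

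The proportions among the factors shifted with these unequal changes. The summed FPKM of the 10 factors went from 40.8 ± 5.73 (SD, n = 4) in the controls to 73.6 ± 6.07 (SD, n = 4) under ANG II. The share of Prrx1 in that sum went from 39.8 ± 4.23% to 25.7 ± 2.93% (SD, n = 4 each), and the share of Runx1 and Runx2 together from 4.74 ± 1.35% to 11.9 ± 1.24%. The ratio of Snai1 to Snai2 was between 0.444 and 0.831 in the controls and between 1.18 and 1.34 in the ANG II libraries, so that the more abundant of the pair was Snai2 in every control and Snai1 in every ANG II library. The ratio of Runx1 to Tcf21 went from 0.371 ± 0.175 to 0.825 ± 0.120, while that of Scx to Tcf21 overlapped between groups (1.48 ± 0.399 and 1.76 ± 0.546). These ratios are descriptions, without a test.

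**Figure D2:**
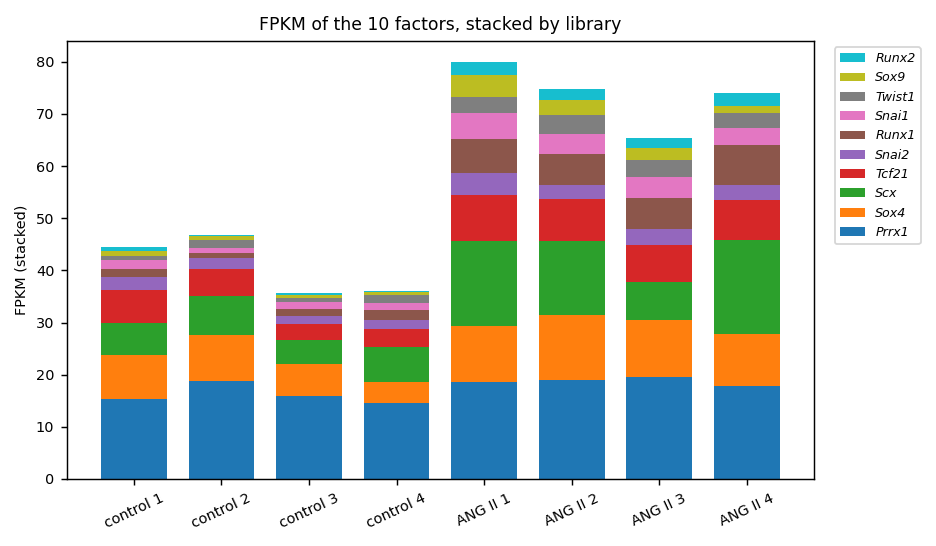
FPKM of the 10 factors stacked for each library (vertical axis, FPKM; 4 control and 4 ANG II libraries). The stacks reach 35.6 to 46.9 FPKM in control and 65.4 to 80.0 FPKM in ANG II, while the lowest segment, Prrx1, stays between 14.5 and 19.6 FPKM throughout.

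Within a group the factors did not move as one. ANG II 1 was the highest of its group in 5 factors and ANG II 4 the lowest in 5, yet ANG II 4 had the highest Runx1 and Scx. Control 3 was above the control mean in only 1 of the 10 factors. After removal of the group means, the Pearson correlation over 8 libraries was highest for Tcf21 with Snai2 (0.81) and lowest for Runx1 with Prrx1 (-0.91). The libraries share depth and scaling between genes, and these values are given as descriptions.

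The genes most like 9 of the factors over the 8 libraries, by the Pearson correlation of log2(FPKM + 1) among 13470 candidates, were Apod for Runx1, Zswim8 for Runx2, Prc1 for Sox9, Commd3 for Sox4, Ttc23 for Tcf21, Smarcc1 for Twist1, Herc1 for Scx, Cradd for Prrx1 and Rgs19 for Snai1. The correlations ran from 0.99 to 1.00, and many other genes came close: 1122 genes reached 0.95 with Runx2 and 772 with Runx1, but 16 with Prrx1. All of them share the 8 libraries and the split into 2 groups. Apod, a secreted lipid carrier, went from 6.25 to 26.2 FPKM, and Prc1, which organises the spindle midzone at cell division, from 1.24 to 5.87 FPKM.

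The level of the factors was then set against markers of resident fibroblasts. Of the 10 markers 6 rose, among them Pdgfra, the receptor for platelet-derived growth factor (19.3 ± 2.20 to 31.4 ± 4.52 FPKM), Dcn, a collagen-binding proteoglycan (293 ± 37.7 to 489 ± 47.9 FPKM), and Pi16 (18.7 ± 3.06 to 38.6 ± 3.93 FPKM; SD, n = 4 each). Under median-of-ratios scaling 3 of the 10 were called higher and 1 lower, and in limma-voom 3 higher and 2 lower; Pdgfra was then at a log2 fold change of 0.46 and 0.48, under the threshold. Gsn, the most abundant marker, was at 819 ± 97.4 and 587 ± 122 FPKM and was not called (adjusted p = 0.028, limma, log2 fold change -0.50), but it was called lower under median-of-ratios scaling (-0.71, adjusted p = 0.00489) and in limma-voom (-0.71, adjusted p = 8.47e-04). Scara5 was not called either (log2 fold change -0.53, adjusted p = 0.136, limma), but it was called lower in limma-voom (-0.84, adjusted p = 0.019). The summed FPKM of the markers overlapped between groups, at 1171 to 1511 in control and 1237 to 1719 in ANG II (p = 0.371 by exact permutation, two-sided). The mean log2(FPKM + 1) of the markers did not overlap, at 5.48 to 5.76 in control and 5.79 to 6.26 in ANG II. After this mean was subtracted from every gene in each library, 5 of the 10 factors were higher in ANG II, where 4.57% of all tested genes were called higher and 18% lower.

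Relative to the markers, the log2 fold change was 1.18 for Runx1 (SE 0.180, adjusted p = 7.44e-05, limma), 0.79 for Runx2 (adjusted p = 0.00372), 0.74 for Snai1 (adjusted p = 0.00687), 0.66 for Sox9 (adjusted p = 0.0381) and 0.58 for Scx (adjusted p = 0.0496). It was 0.50 for Twist1 (95% interval 0.09 to 0.90, adjusted p = 0.058, limma), 0.32 for Tcf21 (-0.07 to 0.72), 0.21 for Sox4 (-0.21 to 0.63), 0.10 for Snai2 (-0.28 to 0.48) and -0.20 for Prrx1 (-0.52 to 0.11), none of which passed. The calls of Sox9 and Scx were lost without ANG II 1, ANG II 2, control 3 or control 4, which left 3 factors, and that of Scx also without ANG II 4 or control 1, which left 4. With Pdgfra as the only reference 2 were left, Runx1 and Runx2, where 2.54% of all tested genes were higher and 52.9% lower. Without Gsn among the markers 3 were left, Runx1, Runx2 and Snai1, where 3.63% were higher and 30.9% lower. On recovered fragments 5 were higher, with Twist1 in place of Scx, where 5.9% of all tested genes were called higher and 10.2% lower.

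**Figure D3:**
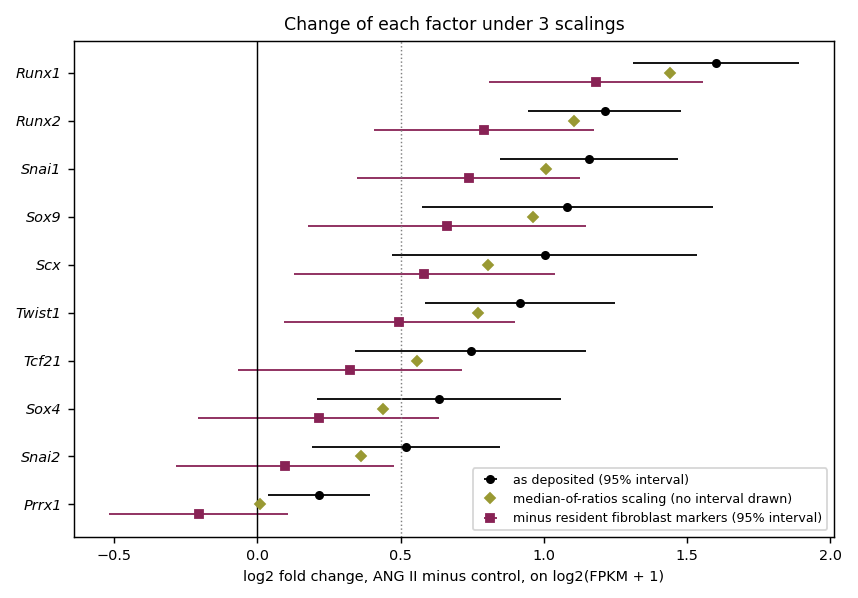
Log2 fold change (ANG II minus control, horizontal axis) of the 10 factors on the deposited scale, under median-of-ratios scaling and after subtraction of the resident fibroblast markers; bars are 95% intervals of limma and the dotted line is the fold change threshold of 0.5. Runx1 is at 1.60, 1.44 and 1.18 on the 3 scales, and Prrx1 at 0.22, 0.01 and -0.20.

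Runx1 and some of the other factors are also made in white blood cells. Of the 10 macrophage markers 9 rose, with a summed level of 236 to 311 FPKM in control and 525 to 737 FPKM in ANG II (p = 0.0286 by exact permutation, two-sided, which is the lowest p that 4 against 4 can give). Ptprc (CD45) went from 7.55 ± 2.50 to 21.2 ± 3.21 FPKM (SD, n = 4 each), and Ccr2, a receptor of recruited monocytes, from 2.16 ± 1.29 to 11.2 ± 3.12 FPKM. When the mean of the macrophage markers was subtracted in place of that of the fibroblast markers, a choice made after the data were seen, 0 of the 10 factors were higher and 4 lower (limma), where 0.769% of all tested genes were higher and 92.1% lower; Runx1 was at 0.35 (adjusted p = 0.0913). On recovered fragments, 2 factors were higher than these markers, Runx2 (1.10, adjusted p = 0.0146, limma-voom) and Runx1 (0.75, adjusted p = 0.0272), and 3 were lower, where 1.22% of all tested genes were higher and 66.3% lower. The part of white blood cells in the rise of the factors was not tested.

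Other markers moved as well or stayed. Over all tested genes 14% were called higher, and 8.78% under median-of-ratios scaling. T cell markers were called higher in 3 of 7, megakaryocyte and platelet markers in 1 of 5 (Pf4), endothelial markers in 1 of 6 and smooth muscle and pericyte markers in 2 of 7; with median-of-ratios scaling the last 2 counts were 0 and 1. All 4 cell cycle markers rose, and their sum was 4.73 to 10.1 FPKM in control and 22.4 to 56.0 FPKM in ANG II. None of the 6 epicardial and mesothelial markers tested and none of the 4 Schwann cell markers was called (limma). The atrial markers summed to 1.15 to 48.8 FPKM in control and 52.5 to 230 FPKM in ANG II, and 1 of 3 was called, but 0 with median-of-ratios scaling. The part of these cells in the results was not tested.

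Of 16 family relatives of the factors 13 were tested and 4 rose, with a median log2 fold change of 0.35, where 14% of all tested genes were called higher. Zeb2, a zinc finger repressor that is also made in macrophages, rose from 21.6 ± 1.49 to 39.2 ± 2.89 FPKM (adjusted p = 3.61e-05, limma), Prrx2, the paralog of Prrx1, from 0.539 ± 0.240 to 1.91 ± 0.820 FPKM (adjusted p = 0.00514), Msc from 1.66 ± 0.256 to 3.07 ± 0.564 FPKM and Runx3, a factor of lymphocytes, from 1.55 ± 0.730 to 3.85 ± 1.77 FPKM (SD, n = 4 each). Twist2, Sox11 and Hand1 were under the filter of 0.1 FPKM. Under median-of-ratios scaling 2 of the 4 calls were left.

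Among 15 binding partners and cofactors, 3 rose and none fell (median log2 fold change 0.33), where 14% of all tested genes were called higher. Without ANG II 2 the count was 5. Id2 and Id3, which hold E proteins away from DNA, went from 6.38 ± 2.35 to 13.8 ± 1.89 FPKM and from 50.6 ± 10.5 to 92.0 ± 9.82 FPKM (log2 fold change 1.04 and 0.87), and Tle3, a corepressor, from 5.85 ± 0.599 to 10.6 ± 1.31 FPKM (SD, n = 4 each). Cbfb, the partner of RUNX proteins, was at 21.5 ± 1.41 and 30.04 ± 2.15 FPKM, a log2 fold change of 0.46 (adjusted p = 7.81e-04, limma) under the fold change threshold, and the E proteins Tcf3, Tcf4 and Tcf12 were likewise between 0.36 and 0.48.

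Of 23 other fibroblast regulators tested, 9 rose and none fell (median 0.41); with quantile normalization 4 were called higher, and with median-of-ratios scaling 6. Meox1, a homeobox factor of activated cardiac fibroblasts, rose from 8.46 ± 1.32 to 35.0 ± 6.03 FPKM (log2 fold change 1.92, adjusted p = 1.37e-05, limma). Bnc2 (0.93), Hic1 (0.91), the TGF-beta feedback inhibitors Smad7 (0.88) and Skil (0.73), and Tbx18 (0.71) followed by log2 fold change. Among the genes that carry contractile and stretch signals, the Srf cofactor Mkl1 rose (0.64, adjusted p = 5.84e-04, limma), a call lost under median-of-ratios scaling (0.46). Tead4 (0.43), Wwtr1 (0.41) and Mkl2 (0.32) had adjusted p under 0.05 but stayed under the fold change threshold, and Srf (-0.12), Tead1 (-0.12) and Yap1 (0.06) were not called.

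**Figure D4:**
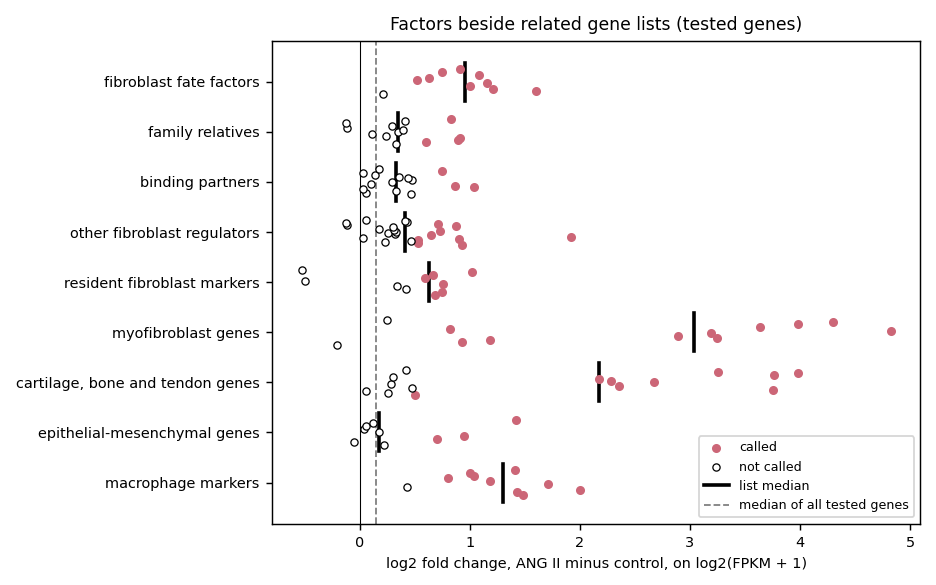
Log2 fold change (ANG II minus control, horizontal axis) of each tested gene of the 10 factors and 8 related gene lists; filled points were called, open points were not, the black bar is the list median and the dashed line the median of all tested genes (0.15). The medians are 0.96 for the 10 factors, 3.04 for myofibroblast genes, 2.18 for cartilage, bone and tendon genes and 0.35 for the family relatives.

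Genes of the cell fates that these factors are known for were counted in the same way. Of 12 myofibroblast genes 10 rose (median log2 fold change 3.04), among them Cthrc1 (0.187 ± 0.0841 to 33.2 ± 7.18 FPKM), Postn (33.2 ± 8.28 to 667 ± 141 FPKM) and Lox (1.84 ± 0.497 to 44.1 ± 9.54 FPKM), whereas Acta2 was at 108 ± 25.9 and 92.6 ± 15.2 FPKM and was not called (adjusted p = 0.385, limma; SD, n = 4 each). Tagln, a smooth muscle gene, was listed at 0.0325 and 0.233 FPKM and was not called; Acta2 and Myh11 of the same cells were well detected (Myh11 at 13.3 and 13.6 FPKM), so its row in the table is doubtful.

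Of 24 cartilage, bone and tendon genes 15 were tested and 9 rose (median log2 fold change 2.18). The matrix genes Thbs4 (5.87 ± 3.04 to 103 ± 30.3 FPKM), Cilp (7.21 ± 2.95 to 109 ± 32.4 FPKM) and Comp (13.4 ± 6.65 to 86.3 ± 30.2 FPKM) were among them, as was Spp1 (1.15 ± 0.844 to 28.98 ± 14.5 FPKM), a bone matrix protein that macrophages also make. Acan, the cartilage proteoglycan that Sox9 is known to drive, was called at a low level (0.128 ± 0.0796 to 0.603 ± 0.132 FPKM; SD, n = 4 each). Its log2 fold change was 0.51 but 0.45 under median-of-ratios scaling, where the call was lost and 8 genes of the list were left. Sp7 and Bglap, the defining genes of bone-forming cells, were at 0 in all 8 libraries, Alpl was not called (log2 fold change 0.26), and Col2a1, the main cartilage collagen, was at 0.109 and 0.354 FPKM and was not called.

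Of 11 genes that mark the change between epithelial and mesenchymal cells, which Snai1, Snai2 and Twist1 are known to control, 9 were tested and 3 rose: Vim (164 ± 19.7 to 442 ± 75.1 FPKM), Itga5 and Krt18. Itga5 fell just under the fold change threshold with median-of-ratios scaling (0.49), which left 2. Cdh1, the E-cadherin gene that Snail proteins repress, was close to the filter at 0.0462 and 0.219 FPKM on average and was not called (adjusted p = 0.0801, limma). Its ANG II libraries were nevertheless all above the controls, and in limma-voom it was called higher (log2 fold change 1.71, adjusted p = 0.0265). Cdh1 had only 1 to 3 fragments per control library and 5 to 15 per ANG II library. It passed the filter of 0.1 FPKM only through the ANG II group, so no rise of Cdh1 is drawn from these values. Epcam and Cgn were under the filter.

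The libraries held 14455654 to 16564828 fragments, and each factor rested on 10 to 1221 fragments per library. Mitochondrially encoded genes took 26.3% to 27.0% of the fragments in control and 19.2% to 21.8% in ANG II. Median-of-ratios scaling moved the median of all tested genes from 0.15 to 0.01 and left 7 of the 10 factors called higher, without Sox4 and Snai2, where 8.78% of all tested genes were called higher and 4.03% lower. Quantile normalization left 6 (without Tcf21 as well), against 7.3% higher and 5.09% lower, and limma-voom 8, against 11.9% higher and 5.17% lower. With the median of all tested genes taken off, the log2 fold changes on the deposited scale were 1.45 for Runx1, 1.06 for Runx2, 0.93 for Sox9 and 0.07 for Prrx1. Cardiomyocyte markers of the ventricle summed to 35431 to 36332 FPKM in control and 26479 to 29567 FPKM in ANG II. The extraction note in the labels names CRC cells, but these defining markers of the labelled tissue were present in every library.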

How the data were processed

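Per the labels, libraries were made from left ventricular RNA selected with oligo(dT). The authors deposited 1 table of FPKM values with 1 column per library. The submitters' processing notes name Bowtie2, HISAT and RSEM; versions, build, annotation and use of strand are not given in the sources used here. Gene positions came from GENCODE M21 (GRCm38), in which 55141 of 55679 gene IDs were found.

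The 19364 genes averaging 0.1 FPKM or more were fitted with limma 3.58.1 (R 4.3.3; moderated variances with trend) on log2(FPKM + 1) over 8 libraries, two-sided, with no covariate. P-values were adjusted by Benjamini-Hochberg over all genes tested, and calls needed an adjusted p under 0.05 and a log2 fold change beyond 0.5 in either direction. Both cut-offs follow the study, which gives neither log base, pseudocount nor filter; these were chosen here. Fold changes on this scale understate changes of low genes, while subtracting a marker mean takes the same amount off every gene. Fragments were recovered from the FPKM steps (in the library with the lowest share, 99.05% of values under 60 fragments were within 0.02 of a whole number in genes with 1 transcript, and 95.49% in genes with several) and fitted with limma-voom under TMM factors computed here. Single values were compared by exact permutation over 70 allocations.

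The 10 factors and all gene lists were chosen with earlier results of these data known. All factors are named, up to 6 called genes per list, and the most correlated gene for each factor, of which 1 is not reported here; Mkl1 and list genes named without a call were chosen after their values were seen. Alternatives changed the pseudocount, filter, scaling, variance trend, marker reference, replicate block and fold change threshold, or left out each library. The fit was also run on simulated data, and the outcome is not reported here. Python 3.11.15, numpy 2.4.6, pandas 2.3.3 and matplotlib 3.10.9 were used.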

Additional observations from a re-analysis of the deposited data

Results flagged for a closer look

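Runx2 in control 1 (0.691 FPKM, 22 fragments) stood apart from the other controls: its gap to the next value was 0.953 of the range of the group, above the 95% critical value of Dixon's test for 4 samples. It was 1 of 20 groups examined (10 factors in 2 groups), and chance alone marks about 1 in 20. Without control 1 the log2 fold change of Runx2 was 1.30 (adjusted p = 1.45e-04, limma).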

How the results depend on the processing

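On the deposited scale, 151 of 170 values of single factors (10 factors under 17 alternatives) kept direction and call, 18 lost the call and 1 turned, Prrx1 under quantile normalization (-0.0201). Runx1, Runx2, Sox9, Twist1, Scx and Snai1 kept their calls under all 17; Sox4 lost its call under 10, Snai2 under 7 and Tcf21 under 1 (quantile normalization). The count of factors called higher was 7 to 9 with a library left out (12.8% to 14.5% of all tested genes), 6 under quantile normalization (7.3%), and 5 with a log2 fold change above 1 required (3.96%). The related lists counted were family relatives, partners, other fibroblast regulators, resident fibroblast markers, myofibroblast genes, cartilage, bone and tendon genes and epithelial-mesenchymal genes. Macrophage markers were not among them. Of their 97 tested genes 44 were called higher, where 14% of all tested genes were. Under the alternatives the count was 33 to 46, with 81 to 110 genes tested.

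Relative to fibroblast markers, 139 of 180 values (18 alternatives) kept direction and call, 21 lost the call, 4 gained one and 16 turned. Scx kept its call under only 5 alternatives, lost it under 11 and turned under 2, where it was not called either. The count was 5; it was 3 to 5 with a library left out (3.67% to 4.97% of all tested genes), 2 with Pdgfra alone and 3 without Gsn. Sox4 turned with Pdgfra alone (-0.0350) and without control 4 (-0.00782; -0.00782 to 0.325 with a library left out), and Snai2 with Pdgfra alone (-0.15) and without Gsn (-0.00382). With macrophage markers as the reference, added after the data were seen, the count was 0 on log2(FPKM + 1) and 2 on fragments. On log2(FPKM + 1) Runx2 (-0.0369), Sox9 (-0.17), Sox4 (-0.61), Tcf21 (-0.50), Twist1 (-0.33), Scx (-0.25), Snai1 (-0.0904) and Snai2 (-0.73) turned, and on fragments Sox4 (-0.69), Tcf21 (-0.51), Scx (-0.28) and Snai2 (-0.67). The cause was not tested.

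Replicate numbers showed no sign of pairing: same-numbered libraries correlated by -0.03 to 0.06, and 2 of 8 samples matched their own number best. These values cannot show whether equal numbers mark a shared animal, litter or day. With the replicate number as a block, 9 factors were called higher (13.9% of all tested genes), and 5 relative to fibroblast markers (4.74%). Depth limits Runx2 most, at 10 to 22 fragments per control.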
